A study of Mus musculus with 6 samples.

Results

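The genes that bring proteins into mitochondria, fold them there and degrade them were compared between ventricles that overexpressed COUP-TFII (OE) and control ventricles (CTRL). Members were the genes whose probe sets name a single symbol that starts with Timm or Tomm and a number, together with 26 genes listed by name. By this rule 48 of the 18193 genes on the array were measured, with 105 probe sets, and 32 of the 48 had more than 1 probe set. They are 30 genes of the import machinery, 7 chaperones, 8 proteases and 3 scaffold genes of the inner membrane (prohibitin and the cristae junction complex). *Phb*, *Tomm5* and *Tomm6* could not be measured by this rule, because their 5 probe sets also name another gene.

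Whole ventricles of 3 CTRL and 3 OE mice were hybridized to 6 Affymetrix arrays. CTRL mice had the genotype Myh6-MerCreMer and OE mice the genotype Myh6-MerCreMer; CAG-S-COUP-TFII, both on a mixed 129SvEv/C57Bl6/J strain. Every mouse of both groups was given tamoxifen, 40 mg/kg/day for 3 days from the age of 2 months, and hearts were taken on day 16 after the first dose (age 2.5 months in the labels, 2 months in the methods, male). Tamoxifen activates the Cre recombinase, which the *Myh6* promoter drives in cardiomyocytes, and Cre turns on the COUP-TFII allele in these cells, while the RNA came from all cells of the ventricle. In such bulk tissue, fewer cells of a type and less RNA per cell cannot be told apart.

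Nearly all mitochondrial proteins are made in the cytosol and enter through the TOM complex of the outer membrane. From there the TIM23 complex and its heat shock protein motor pull precursors with a presequence into the matrix, small TIM chaperones and the TIM22 complex insert carrier proteins, and a disulfide relay traps small proteins of the intermembrane space. In the matrix, chaperones fold what arrives and AAA proteases remove what fails to fold. In the heart, where mitochondria fill a large part of the cardiomyocyte, a shortage of import or folding is known to raise the mitochondrial unfolded protein response.

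Each value below is a log2 value relative to the median of the 6 arrays for that probe set, averaged over the probe sets of a gene. It shows how arrays differ for a gene and holds no level, so genes are not ranked by abundance, and the labelled tissue could not be checked by the level of its markers. Arrays of the same group differed over all genes by a root mean square of 0.194 to 0.233 and arrays of different groups by 0.375 to 0.427. By this distance no array stood apart from its group. In some fibroblast markers, but not all, CTRL 3 differed from CTRL 1 and CTRL 2. *Postn* was at −0.85 in CTRL 3 against −1.85 and −2.06, and *Col1a1* at −0.05 against −0.97 and −0.91. For *Nr2f2*, which encodes COUP-TFII, 1 of 6 probe sets was higher in OE (11.2-fold). The other 5 had log2 differences of −0.34 to −0.13 and did not pass the test. Their mean over all 6 gave a log2 difference of 0.38 (limma, adjusted p = 0.0466). Of 14 cardiomyocyte markers 1 was higher and 8 lower in OE, with array means of 0.15 to 0.20 in CTRL and −0.22 to −0.16 in OE. The 9 fibroblast markers held 5 higher and 1 lower (array means −0.64 to −0.21 in CTRL, 0.19 to 0.38 in OE), the 9 macrophage markers 4 higher and 0 lower (−0.39 to −0.12 and 0.07 to 0.38), and the 9 endothelial markers 0 higher and 4 lower (0.08 to 0.38 and −0.19 to 0.03). Over all genes 14.9% were called higher and 11.8% lower in OE. The part of these marker shifts in the results below was not tested.

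OE ventricles differed from CTRL in both directions within this machinery. Of the 48 members 9 were higher and 9 were lower in OE (limma, Benjamini-Hochberg adjusted p under 0.05), and 30 did not pass the test. Over all genes 26.7% passed, 14.9% as higher and 11.8% as lower. The called changes were small, with the largest rise at 1.46-fold (*Grpel2*) and the largest fall at 1.37-fold (*Immt*). The median log2 difference of OE minus CTRL was −0.01 over the 48 members and −0.03 over all genes, and 24 members had a positive and 24 a negative difference. In 26 members the groups did not overlap, with OE above CTRL in 12 and below it in 14, against 45.6% of all genes. Every called member was among these 26.

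**Figure D1:**
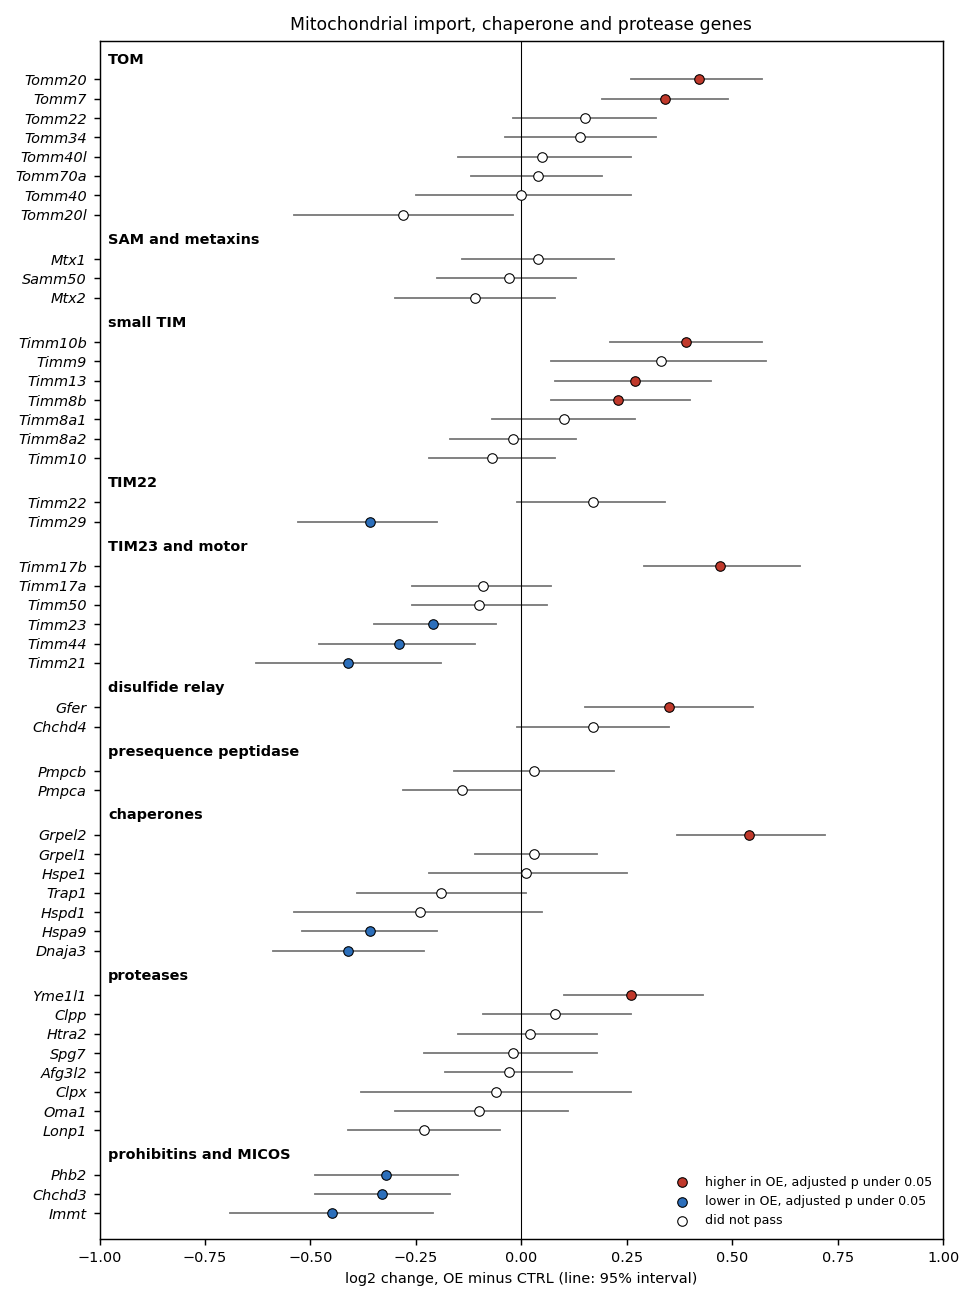
Log2 change of OE minus CTRL for each of the 48 measured members, grouped by role, with its 95% interval from limma; filled points passed the test at an adjusted p under 0.05. Of the 9 called rises 5 lie in TOM and the small TIM chaperones, and the 3 measured scaffold genes are all lower. *Chchd6* of the cristae junction complex, not a member and not shown, was higher. Over all genes 14.9% were called higher and 11.8% lower. Ribosomal protein genes as reference lower every log2 difference. With them no called member changes direction but only 3 of the 9 rises are still called.

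Calls and medians were also taken by class. Of the import genes 7 of 30 were higher and 4 lower, with a median log2 difference of 0.04, which turned to −0.18 when each array was centred on its ribosomal protein genes instead (below called ribosomal protein genes as reference). Of the chaperones 1 of 7 was higher and 2 lower (median −0.19), of the proteases 1 of 8 was higher and none lower (median −0.03), and all 3 scaffold genes were lower (median −0.33). The share called was 36.7% of import genes, 42.9% of chaperones and 12.5% of proteases, against 26.7% of all genes. The difference between classes was not tested.

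Among the receptors and channel subunits of the TOM complex, 2 of 8 rose in OE and none fell. This share of 25.0% called was near the 26.7% of all genes. *Tomm20*, the receptor that first binds presequences, had values of −0.24, −0.26 and −0.17 in the 3 CTRL arrays and 0.24, 0.17 and 0.17 in the 3 OE arrays. All OE arrays lay above all CTRL arrays with a gap wider than the spread of either group, a 1.33-fold rise (log2 0.42, SE 0.07, adjusted p = 0.00398). *Tomm7*, a small subunit that regulates the stability of the complex, rose 1.27-fold (log2 0.34, SE 0.06, adjusted p = 0.00805). Its call was lost with ribosomal protein genes as reference (log2 0.12, adjusted p = 0.167). The channel *Tomm40* had a log2 difference of 0.00 (95% interval −0.25 to 0.26), its paralogue *Tomm40l* 0.05, the central receptor *Tomm22* 0.15 (adjusted p = 0.176) and the cytosolic cochaperone *Tomm34* 0.14. The 2 probe sets of *Tomm40l* were at 0.29 with all OE arrays above CTRL and at −0.18 with all below, and neither passed. *Tomm20l*, a paralogue of *Tomm20*, had the lowest value of the group at −0.28 (adjusted p = 0.0982). It passed the test only when CTRL array 3 was left out (log2 −0.38, adjusted p = 0.036) or with ribosomal protein genes as reference (log2 −0.50, adjusted p = 0.00798).

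*Tomm70a*, the receptor for carrier proteins without a presequence, was the single member whose probe sets passed the test in opposite directions. The first of these read −0.23, −0.43 and −0.18 in CTRL and 0.19, 0.18 and 0.20 in OE (log2 difference 0.47, adjusted p = 0.00815 over probe sets). The other read 0.22, 0.12 and 0.20 in CTRL and −0.49, −0.12 and −0.69 in OE (−0.61, adjusted p = 0.0161). Neither pair of groups overlapped, and they moved apart in opposite directions. Its other 3 probe sets had differences from −0.03 to 0.18, so the mean over all 5 was 0.04 (95% interval −0.12 to 0.19) and does not describe them. Which transcripts each probe set detects was not analysed here.

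**Figure D2:**
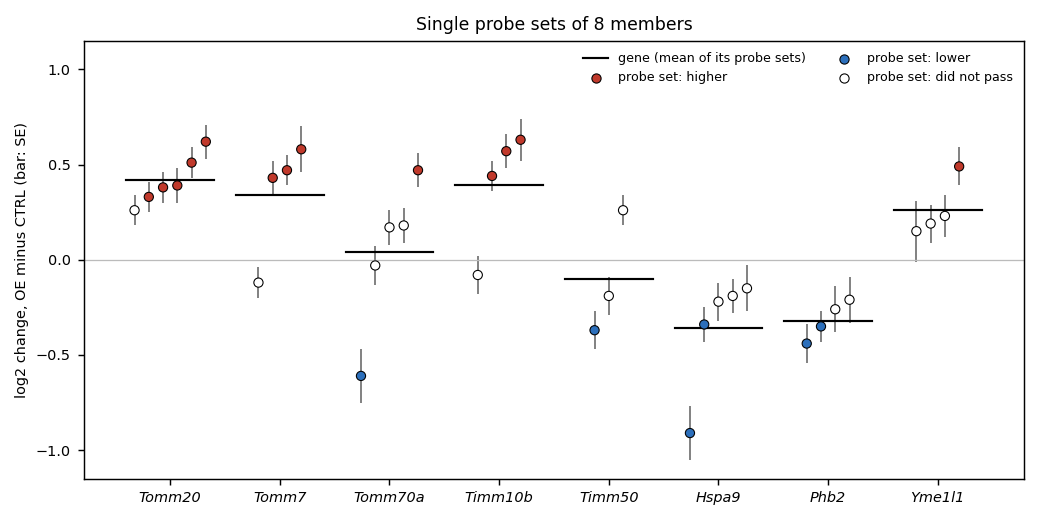
Log2 change of OE minus CTRL for single probe sets (points, bars are SE) of 8 members, with the gene value as a black line; filled points passed the test over all probe sets. The 6 probe sets of *Tomm20* all lie above 0 and those of *Hspa9* all below, while *Tomm70a* has a called probe set on either side.

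Of the small TIM chaperones, which escort hydrophobic proteins across the intermembrane space, 3 of 7 rose and none fell, with a median log2 difference of 0.23. The share called was 42.9%, against 26.7% of all genes. *Timm10b*, the member that docks on the TIM22 complex, read −0.17, −0.34 and −0.13 in CTRL and 0.14, 0.18 and 0.20 in OE. The OE arrays were close together and all above CTRL, a 1.31-fold rise (log2 0.39, SE 0.08, adjusted p = 0.00937). The call was lost without the _x_at and _s_at probe sets (log2 0.27, adjusted p = 0.0575) and with ribosomal protein genes as reference (log2 0.17, adjusted p = 0.0795). *Timm13* (log2 0.27, adjusted p = 0.0413) and *Timm8b* (log2 0.23, adjusted p = 0.0477), subunits of related small TIM complexes, passed narrowly. *Timm8b* missed the threshold when any single array was left out (adjusted p from 0.0654 to 0.128). *Timm13* missed it without CTRL 1, CTRL 2, OE 1, OE 2 or OE 3 (adjusted p from 0.0508 to 0.129), and was called only without CTRL 3 (adjusted p = 0.0345).

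*Timm9*, a core small TIM chaperone, was the uncalled import gene with the largest difference. It read −0.29, −0.18 and −0.04 in CTRL and 0.04, 0.37 and 0.06 in OE (log2 0.33, adjusted p = 0.0623). All OE arrays were above CTRL, but OE array 2 stood well above the other two. Its partner *Timm10* had a difference of −0.07 (95% interval −0.22 to 0.08). *Timm8a1* was at 0.10 and *Timm8a2* at −0.02. With ribosomal protein genes as reference none of the 7 was called higher, and *Timm10* and *Timm8a2* were called lower (log2 −0.29 and −0.24).

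The disulfide relay had 1 of 2 members called. *Gfer*, the sulfhydryl oxidase that recharges the relay, read −0.18, −0.22 and 0.03 in CTRL and 0.15, 0.23 and 0.27 in OE. CTRL array 3 lay apart from the other CTRL arrays but still below every OE array (1.27-fold, log2 0.35, SE 0.09, adjusted p = 0.0219). The call was lost without CTRL 1, CTRL 2, OE 2 or OE 3 (adjusted p from 0.0606 to 0.0691), with ribosomal protein genes as reference (log2 0.13, adjusted p = 0.214) and by one-way analysis of variance (adjusted p = 0.0733). Only 1 of its 2 probe sets was called on its own (log2 0.60, adjusted p = 0.00293 over probe sets). The other was at 0.09 (adjusted p = 0.731), and there CTRL array 3, at 0.41, lay above every OE array. *Chchd4*, the relay's receptor, was at 0.17 with all OE arrays above CTRL and did not pass (adjusted p = 0.138).

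The TIM22 complex held a fall. *Timm29*, a subunit that stabilizes this carrier translocase, read 0.17, 0.12 and 0.20 in CTRL and −0.16, −0.14 and −0.30 in OE. The groups were clearly separate, and both of its probe sets were called lower (1.29-fold lower, log2 −0.36, SE 0.07, adjusted p = 0.00975). *Timm22*, the channel itself, had a difference of 0.17 (95% interval −0.01 to 0.34, adjusted p = 0.142).

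The TIM23 complex and its motor held the most called members of any import complex, 1 higher and 3 lower of 6. That is 66.7% called, against 26.7% of all genes. *Timm17b*, a core subunit of the translocase, read −0.14, −0.34 and −0.18 in CTRL and 0.30, 0.30 and 0.16 in OE. Every OE array was above every CTRL array, a 1.39-fold rise (log2 0.47, SE 0.08, adjusted p = 0.00559), the largest of the import genes. *Timm17a*, the paralogue that takes the same place in the complex, read 0.14, −0.02 and 0.09 in CTRL and 0.01, −0.01 and −0.07 in OE. These groups overlapped, and the difference of −0.09 did not pass (adjusted p = 0.36).

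*Timm21*, which links TIM23 to TOM and to the respiratory chain, read 0.23, 0.10 and 0.13 in CTRL and −0.23, −0.10 and −0.43 in OE (log2 −0.41, SE 0.10, adjusted p = 0.0181). The OE arrays were spread more widely than the CTRL arrays but did not reach them. The call was lost without CTRL 1 (log2 −0.37, adjusted p = 0.0603) or OE 1 (log2 −0.42, adjusted p = 0.0514), and by one-way analysis of variance (adjusted p = 0.0774). *Timm44*, the anchor of the matrix motor, read 0.17, 0.07 and 0.11 in CTRL and −0.19, −0.06 and −0.28 in OE (log2 −0.29, SE 0.08, adjusted p = 0.0306). All OE arrays were below CTRL, with OE array 2 the nearest to them. Its call was kept only without OE 2 (adjusted p = 0.0261) and lost without any of the others (adjusted p from 0.0568 to 0.091).

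*Timm23*, the channel subunit, read 0.13, 0.07 and 0.10 in CTRL and −0.12, −0.07 and −0.13 in OE (log2 −0.21, SE 0.06, adjusted p = 0.0436). Its arrays were the tightest of the group, with an SD of 0.03 within CTRL and within OE. The call was lost without any 1 array (adjusted p from 0.0738 to 0.115) and with arrays centred on their own medians (log2 −0.19, adjusted p = 0.0527). *Timm50*, the receptor of the complex, was at −0.10 (adjusted p = 0.296) with all OE arrays below CTRL. This mean does not describe its 3 probe sets. The lowest, at −0.37, was called lower with all OE arrays below CTRL. The highest, at 0.26, had all OE arrays above CTRL and did not pass (adjusted p = 0.0521 over probe sets). The remaining probe set was at −0.19.

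Neither the genes that build outer membrane barrels nor those that cut presequences passed the test. *Samm50*, the core of the sorting and assembly machinery, had a log2 difference of −0.03, the metaxins *Mtx1* and *Mtx2* of 0.04 and −0.11, and all 3 had overlapping groups. Of the subunits of the matrix peptidase that removes presequences, *Pmpcb* was at 0.03 and *Pmpca* at −0.14 with all OE arrays below CTRL. *Pmpca* had an adjusted p of 0.13 by limma and of 0.033 by one-way analysis of variance, which uses only its own narrow spread (SD 0.02 in CTRL and 0.03 in OE).

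**Figure D3:**
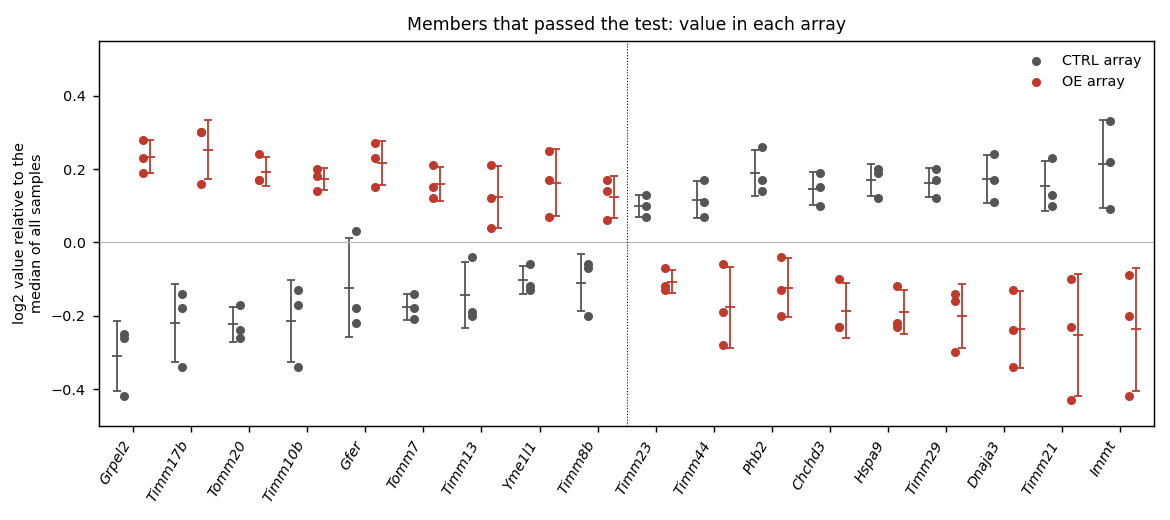
Log2 value relative to the median of all samples in each of the 3 CTRL (grey) and 3 OE (red) arrays for the 18 members that passed the test, with the group mean and SD as bars, higher genes left of the dotted line and lower genes right of it. In each of the 18 the 3 OE arrays lie on one side of the 3 CTRL arrays.

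The chaperones moved apart within a single reaction cycle. The matrix Hsp70 *Hspa9* (mortalin), which both pulls precursors in and folds them, read 0.20, 0.12 and 0.19 in CTRL and −0.22, −0.12 and −0.23 in OE. It fell 1.28-fold with the groups well separated (log2 −0.36, SE 0.07, adjusted p = 0.00785). All 5 of its probe sets were lower, from −0.91 to −0.15, and 2 of these passed the test over probe sets. Without the probe set at −0.91 the remaining 4 ran from −0.34 to −0.15.

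*Dnaja3* (Tid1), the J-domain cochaperone that delivers clients to *Hspa9*, read 0.24, 0.11 and 0.17 in CTRL and −0.24, −0.13 and −0.34 in OE. It fell 1.33-fold, with every OE array below every CTRL array (log2 −0.41, SE 0.08, adjusted p = 0.00811). *Grpel2*, a nucleotide exchange factor of the same Hsp70, moved the other way. It read −0.42, −0.25 and −0.26 in CTRL and 0.23, 0.28 and 0.19 in OE, and both of its probe sets were called higher. This was the largest rise of all members (1.46-fold, log2 0.54, SE 0.07, adjusted p = 0.00212). *Grpel1*, the other exchange factor, had a difference of 0.03 (95% interval −0.11 to 0.18, adjusted p = 0.715).

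The calls for *Hspa9*, *Dnaja3* and *Grpel2* held under each of the 13 other settings fitted per gene. For *Hspa9* and *Dnaja3* the ribosomal protein reference among these settings could only deepen the fall. The chaperonin that folds proteins inside a closed chamber did not pass. Its subunit *Hspd1* (Hsp60) read 0.01, −0.01 and 0.10 in CTRL and −0.39, 0.09 and −0.33 in OE. OE arrays 1 and 3 were below every CTRL array and OE array 2 was not, so the groups overlapped (log2 −0.24, SE 0.13, 95% interval −0.54 to 0.05, adjusted p = 0.193). Without OE array 2 the difference was −0.39 and passed (adjusted p = 0.0176). The cochaperonin *Hspe1* (Hsp10) was at 0.01 (95% interval −0.22 to 0.25). *Trap1*, the Hsp90 of mitochondria, had all OE arrays below CTRL and a difference of −0.19 (adjusted p = 0.145).

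Among the proteases, 1 of 8 passed the test (12.5%, against 26.7% of all genes). *Yme1l1*, the AAA protease whose active site faces the intermembrane space, read −0.13, −0.06 and −0.12 in CTRL and 0.07, 0.25 and 0.17 in OE. All OE arrays were above CTRL (1.2-fold, log2 0.26, SE 0.07, adjusted p = 0.0324), and 1 of its 4 probe sets was called on its own (log2 0.49). The call was kept only without OE 1 (adjusted p = 0.0392) and lost without any of the others (adjusted p from 0.057 to 0.0944). It was also lost with ribosomal protein genes as reference (log2 0.05, adjusted p = 0.646).

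*Lonp1*, the matrix protease for oxidized proteins, had the largest difference of the uncalled proteases. It read 0.19, 0.04 and 0.07 in CTRL and −0.04, −0.19 and −0.16 in OE, all OE arrays below CTRL (log2 −0.23, 95% interval −0.41 to −0.05, adjusted p = 0.0613). With ribosomal protein genes as reference it was called lower (log2 −0.45, adjusted p = 0.00336). The matrix protease *Clpp* was at 0.08 and its unfoldase *Clpx* at −0.06 with the widest interval of the class (−0.38 to 0.26). The 2 probe sets of *Clpp* were at 0.35, called higher, and at −0.18, not called, with all OE arrays below CTRL in the latter. The subunits of the matrix-facing AAA protease, *Afg3l2* and *Spg7*, were at −0.03 and −0.02, the stress-activated protease *Oma1* at −0.10 and the serine protease *Htra2* at 0.02, all with overlapping groups.

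The 3 measured scaffold genes of the inner membrane were all lower in OE. Outside the rule, *Chchd6* of the cristae junction complex was higher (log2 0.98, limma adjusted p = 0.00119) and *Apoo* lower (log2 −0.33, adjusted p = 0.0248). *Immt* (Mic60), the core of the complex that forms cristae junctions, read 0.22, 0.33 and 0.09 in CTRL and −0.20, −0.09 and −0.42 in OE, and each of its 3 probe sets was called lower. This was the largest fall of all members (1.37-fold, log2 −0.45, SE 0.10, adjusted p = 0.017), and it lost its call without CTRL 2 (log2 −0.39, adjusted p = 0.0556) and by one-way analysis of variance (adjusted p = 0.0809). *Chchd3* (Mic19), its partner at the junction, read 0.10, 0.19 and 0.15 in CTRL and −0.23, −0.10 and −0.23 in OE. The groups were well apart, and the fall (1.25-fold, log2 −0.33, SE 0.07, adjusted p = 0.0128) kept its call without any 1 array (adjusted p from 0.0188 to 0.0491). Its 3 probe sets did not all move this way, and 1 was at 0.11 (adjusted p = 0.514 over probe sets).

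*Phb2*, which forms prohibitin rings that hold membrane proteases, read 0.17, 0.14 and 0.26 in CTRL and −0.13, −0.04 and −0.20 in OE (log2 −0.32, SE 0.07, adjusted p = 0.0174). Every OE array was below every CTRL array. The call was lost without OE 1 (log2 −0.31, adjusted p = 0.0564) or OE 3 (log2 −0.28, adjusted p = 0.0542). It was also lost without the _x_at and _s_at probe sets (log2 −0.23, adjusted p = 0.0547), and both of its probe sets that passed on their own end in _x_at. For the other prohibitin, *Phb*, both probe sets also name 1700071K01Rik and had differences of 0.03 and −0.04.

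The remaining probe sets that name a member and another gene bear on the small TOM subunits. Of those that name *Tomm6* together with *Prickle4*, the first read −0.23, −0.20 and −0.26 in CTRL and 0.22, 0.21 and 0.20 in OE (log2 0.44, adjusted p = 0.00468 over 35877 probe sets). The groups were tight and far apart, while the second probe set had 0.20 and did not pass (adjusted p = 0.126). The probe set that names *Tomm5* and *Gm8069* had a difference of −0.23 (adjusted p = 0.116). Which of the named genes gave these signals cannot be told apart.

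Paralogues that take the same place in a complex were set against each other within each array, in 4 pairs. Each probe set is centred on its own median, so the sign of such a difference does not show which paralogue is more abundant. Only the shift between the groups can be read. The log2 difference of *Timm17b* minus *Timm17a* was −0.29 ± 0.03 in CTRL against 0.28 ± 0.05 in OE (SD, n = 3 for each), a shift of 0.57 (95% interval 0.48 to 0.65). That of *Grpel2* minus *Grpel1* was −0.30 ± 0.08 in CTRL against 0.21 ± 0.07 in OE (SD, n = 3 for each), a shift of 0.51 (95% interval 0.34 to 0.68). In both pairs the 3 OE arrays lay apart from CTRL, and a two-sided exact permutation test gave p = 0.1, the smallest that 3 arrays against 3 can give (0.2 adjusted over the 4 pairs). *Timm8b* minus *Timm8a1* shifted by 0.13 (95% interval −0.18 to 0.44; exact permutation p = 0.3, adjusted 0.4) and *Tomm40l* minus *Tomm40* by 0.05 (95% interval −0.25 to 0.35; exact permutation p = 0.6). These intervals leave room for a shift either way.

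Over single probe sets, 20 of the 105 were higher and 17 lower, against 24.4% called among all 34945 probe sets. Of the 14 called members with more than 1 probe set, 11 had all of them on the same side of 0 and 4 had all of them called. *Tomm20* had 5 of 6 called higher. *Tomm7* had 3 of 4 called higher and the other at −0.12, and *Timm10b* had 3 of 4 called higher and the other at −0.08. *Chchd3* had 2 of 3 called lower (−0.62 and −0.47) and the other at 0.11. Besides *Tomm70a*, *Clpp* (log2 0.35), *Timm50* (−0.37) and *Timm9* (0.45) had a called probe set but did not pass as genes.

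Genes that work beside the members were also mixed. Of 12 measured genes of import and processing outside the rule, 3 were higher and 1 lower (33.3% called, against 26.7% of all genes). These were *Mtch1*, an outer membrane protein of the carrier family (log2 0.54, adjusted p = 0.00246), *Pam16*, which restrains the J-protein of the import motor (0.33), *Romo1* (0.31) and *Oxa1l*, the insertase for proteins of the inner membrane (−0.38, adjusted p = 0.00725). *Pam16* read −0.11, −0.27 and −0.09 in CTRL and 0.09, 0.21 and 0.21 in OE, so it moved opposite to *Timm44* and *Hspa9* of the same motor. It lost its call without CTRL 2, OE 2 or OE 3 (adjusted p from 0.0567 to 0.0603) and *Romo1* without CTRL 1, CTRL 2, OE 1 or OE 2 (from 0.0601 to 0.077). Neither was called with ribosomal protein genes as reference (log2 0.11 and 0.09).

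Of 17 measured genes of quality control and cristae, 2 were higher and 4 lower (35.3% called, against 26.7% of all genes). *Chchd6* (Mic25), a subunit of the cristae junction complex and a relative of *Chchd3*, read −0.59, −0.76 and −0.33 in CTRL and 0.53, 0.33 and 0.41 in OE (log2 0.98, SE 0.11, adjusted p = 0.00119). It rose while *Immt*, *Chchd3* and *Apoo* (Mic26, log2 −0.33, adjusted p = 0.0248) of the same complex fell. The call for *Apoo* was lost without CTRL 1, CTRL 2, OE 1 or OE 3 (adjusted p from 0.0555 to 0.0754). *Dnlz*, a zinc finger protein that keeps *Hspa9* soluble, was higher (log2 0.66, adjusted p = 0.00127). The lower genes included *Opa1*, the inner membrane fusion protein that *Oma1* and *Yme1l1* cut (log2 −0.51, adjusted p = 0.00534), and *Pink1*, a kinase that is imported and destroyed in healthy mitochondria (log2 −0.64, adjusted p = 0.00272).

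Regulators of the mitochondrial unfolded protein response were set beside the 7 chaperones and 8 proteases. Of 9 measured regulators 4 were higher and 1 was lower (55.6% called, against 26.7% of all genes). *Atf5*, which in this response reaches the nucleus when its import fails, read −1.21, −0.85 and −0.80 in CTRL and 1.32, 0.89 and 0.80 in OE (log2 1.96, SE 0.16, adjusted p = 0.000338). *Atf4*, the factor of the integrated stress response, read −0.54, −0.43 and −0.13 in CTRL and 0.34, 0.04 and 0.26 in OE (log2 0.58, SE 0.12, adjusted p = 0.0133). Both were higher in every OE array than in any CTRL array, and *Atf4* just missed the threshold without OE 1 (adjusted p = 0.0504).

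*Cebpb*, a partner of these factors, was also higher (log2 0.48, adjusted p = 0.0306), but not without CTRL 1, OE 1, OE 2 or OE 3 (adjusted p from 0.0588 to 0.099). *Dele1*, which carries the signal out of stressed mitochondria, was lower (log2 −0.38, adjusted p = 0.013), and *Ddit3* (CHOP) did not pass (log2 0.16, adjusted p = 0.315). *Ubl5*, a ubiquitin-like cofactor of the response, was higher (log2 0.32, adjusted p = 0.0263). Its call was lost without CTRL 1, CTRL 2, CTRL 3, OE 1 or OE 2 (adjusted p from 0.0625 to 0.0858) and with ribosomal protein genes as reference (log2 0.10, adjusted p = 0.381).

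Of the 7 chaperones, *Grpel2* was higher, *Hspa9* and *Dnaja3* were lower, and the other 4 had differences from −0.24 to 0.03. Of the 8 proteases *Yme1l1* was higher and the other 7 had differences from −0.23 to 0.08. With ribosomal protein genes as reference *Hspd1* (log2 −0.46), *Lonp1* (−0.45) and *Trap1* (−0.41) were called lower as well, *Yme1l1* was not called, and *Atf5* (1.74) and *Atf4* (0.36) kept their rise. *Cebpb* was not called with that reference (log2 0.26, adjusted p = 0.126). By one-way analysis of variance *Atf5* passed (adjusted p = 0.0213). *Atf4* (0.0822), *Cebpb* (0.127), *Ubl5* (0.0754) and *Dele1* (0.0527) did not pass by that test.

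**Figure D4:**
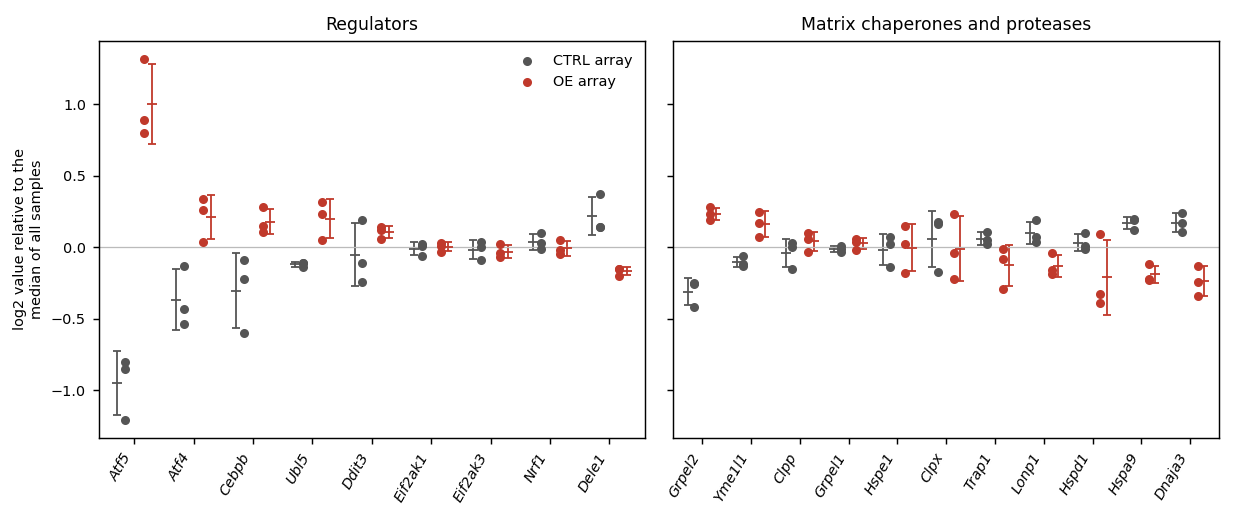
Log2 value relative to the median of all samples in each CTRL (grey) and OE (red) array, with group mean and SD, for the 9 measured regulators of the mitochondrial unfolded protein response (left) and for chaperones and proteases of the mitochondria (right). *Atf5* separates the groups by 1.96 on the log2 scale, while the genes on the right differ by −0.41 to 0.54.

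Promoters of 41 of the 48 members were found in the RefSeq table (mouse build GRCm38.p6, 250 bases before to 50 after each start) and searched on both strands for 6 motifs. The promoters of *Dnaja3*, the called chaperone in that table, of *Timm44*, and of *Timm13* are shown, because they carry the motifs counted below beside calls in either direction. Each is printed from 200 bases before the start to its first 10 bases, on the strand of the gene, at chr16:4683870-4684079 (+ strand), chr8:4275896-4276105 (− strand) and chr10:80900960-80901169 (− strand). Capitals mark AGGTCA, the core that nuclear receptors such as COUP-TFII bind, CCAAT, and GCATGCGC, the core for Nrf1, an activator of mitochondrial genes.
Dnaja3: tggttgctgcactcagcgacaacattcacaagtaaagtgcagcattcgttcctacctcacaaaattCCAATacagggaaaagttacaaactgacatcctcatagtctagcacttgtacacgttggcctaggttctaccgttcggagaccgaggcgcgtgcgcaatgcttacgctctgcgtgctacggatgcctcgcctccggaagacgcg
Timm44: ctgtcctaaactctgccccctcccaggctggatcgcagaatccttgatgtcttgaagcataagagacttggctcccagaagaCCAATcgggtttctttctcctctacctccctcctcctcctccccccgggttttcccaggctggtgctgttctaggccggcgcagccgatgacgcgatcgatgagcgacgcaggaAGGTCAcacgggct
Timm13: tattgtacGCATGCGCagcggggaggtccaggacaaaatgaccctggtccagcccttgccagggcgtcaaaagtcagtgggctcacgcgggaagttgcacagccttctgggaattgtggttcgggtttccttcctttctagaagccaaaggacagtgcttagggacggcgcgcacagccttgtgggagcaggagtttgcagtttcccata

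AGGTCA was in 10 of 41 member promoters (24.4%) and in 16.0% of all 27025 promoters. Among the members called higher 3 of 7 held it (*Timm10b*, *Timm13*, *Timm8b*), among those called lower 2 of 7 (*Timm23*, *Timm44*), and among those not called 5 of 27. In *Timm44* it begins 4 bases before the start and runs across it, as printed above, and in *Timm13* it lies 20 bases after the start, outside the printed stretch. DR1, the direct repeat of this core with a single base between, was in no member promoter and in 0.0444% of all. The Nrf1 core was in 3 of 41 (*Clpx*, *Grpel1* and *Timm13*) and in 2.8% of all, and CCAAT in 14 of 41 (34.1%) and 37.9%.

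The heat shock core GAANNTTC was in the promoters of *Hspe1* and *Timm9*, against 7.95% of all promoters, and TTGCATCA, of the type that Atf4 binds, was in no member promoter and in 0.929% of all. *Hspd1* and *Hspe1* lie head to head, with annotated starts that overlap by 96 bases. Their log2 differences were −0.24 and 0.01, neither passed, and the 2 genes were not tested against each other. A match is a string of letters in this window and does not show that a factor binds there.

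Other nuclear genes of the mitochondrion were described in the same way. Of 76 mitochondrial ribosomal protein genes 6 were higher and 13 lower (25.0% called, median log2 difference −0.02). Of 35 complex I subunit genes 1 was higher and 11 lower (34.3% called, median −0.13). Rises and falls were equal in number among the import, chaperone, protease and scaffold genes, at 9 each (37.5% called). The share called over all genes was 26.7%. No test of the difference between these lists was made.

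The balance of rises and falls among the members depended on how the arrays were scaled. The authors' quantile normalization sets the distribution of all values equal between arrays. Measured against the mean of 42 cytosolic ribosomal protein genes, 16 of which were called higher and 1 lower in OE, all genes had a median of −0.25 in place of −0.03, and 3 members were higher and 23 lower in place of 9 and 9. Over all genes the split moved from 2709 higher and 2152 lower to 1302 higher and 9236 lower. *Grpel2* (log2 0.33, adjusted p = 0.015), *Timm17b* (0.26, adjusted p = 0.0342) and *Tomm20* (0.20, adjusted p = 0.046) kept their rise, and all 9 falls kept their call. This reference lowers every log2 difference, so each fall was deepened by it and the kept calls of the falls add no support. By one-way analysis of variance *Immt*, *Timm21*, *Timm44*, *Gfer*, *Timm13*, *Timm8b* and *Yme1l1* lost their calls (adjusted p from 0.0607 to 0.0857). Calls over all genes also fell by that test, to 1437 higher and 1125 lower. Of the 18 called members, 7 (*Grpel2*, *Timm17b*, *Tomm20*, *Dnaja3*, *Hspa9*, *Timm29* and *Chchd3*) were called in the same direction under every one of the 13 other settings fitted per gene. For the falls among them the ribosomal protein reference is no separate check.

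**Figure D5:**
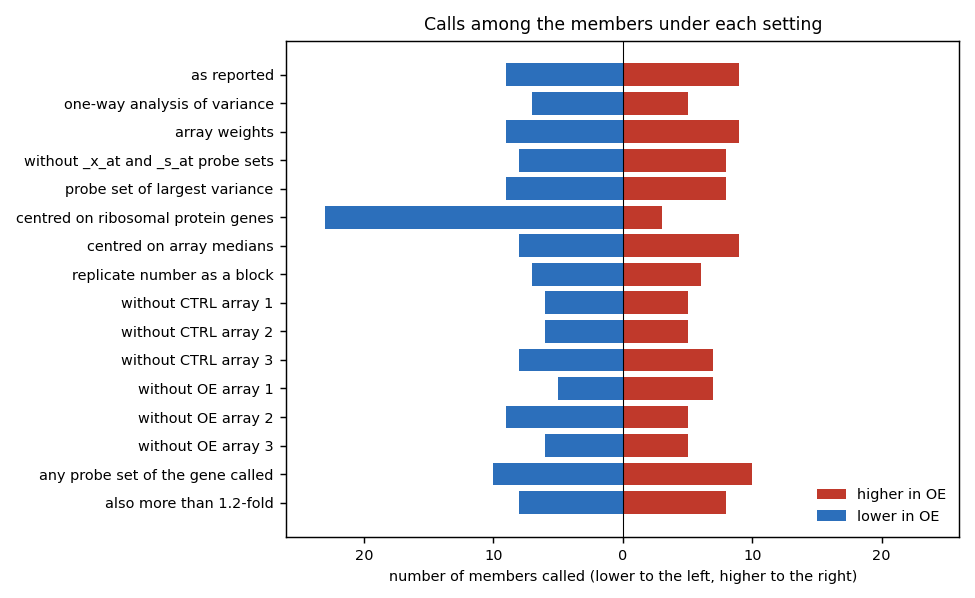
Number of members called lower (left, blue) and higher (right, red) in OE under the reported fit and each other setting. The counts run from 3 to 10 higher and from 5 to 23 lower, with both the fewest rises and the most falls where ribosomal protein genes are the reference.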

How the data were processed

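Affymetrix whole-genome mouse arrays of 3 CTRL and 3 OE ventricles were analysed from the deposited value table. The authors had processed them in GeneSpring GX with RMA, quantile normalization and a baseline at the median of all samples. The deposited values, −4.29 to 3.54, were taken as log2 values because RMA gives these; the base is not given in the sources used here. Because each probe set is centred on its own median, no filter on level, background correction or filter on dim probes was run. Of 45101 probe sets, 932 that name several symbols, 9211 without a gene (51 of them array controls) and 13 further array controls were left out. The remaining 34945 were averaged to 18193 genes and compared with limma 3.58.1 (lmFit, eBayes, R 4.3.3), two-sided, without covariates, Benjamini-Hochberg adjusted over all genes at 0.05. SE is moderated. One-way analysis of variance, the test of the study, was an alternative because 3 arrays give an unsteady variance. Members and lists were chosen with earlier results of these data known. All members are accounted for; values per array are given for up to 4 called rises and falls in each class, for the uncalled member with the largest difference, and for members with probe sets called both ways. The number of arrays limits the precision. Tables and figures used Python 3.11.15 with pandas 2.3.3, scipy 1.17.1 and matplotlib 3.10.9.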

Additional observations from a re-analysis of the deposited data

How the results depend on the processing

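By one-way analysis of variance 5 members were higher and 7 lower, and 11 of the 18 calls held. Over all genes that test called 1437 higher and 1125 lower, in place of 2709 and 2152. Centred on ribosomal protein genes 3 were higher and 23 lower, and the median log2 difference was −0.23 over all members, −0.18 over import genes, −0.41 over chaperones and −0.24 over proteases. Leaving out the _x_at and _s_at probe sets made it 0.08 for import genes and −0.06 for proteases, with the probe set of largest variance 0.13 for import genes, and over single probe sets 0.13 for import genes and 0.10 for proteases. Leaving out an array gave 5 to 7 higher members (5 without CTRL 1, CTRL 2, OE 2 or OE 3) and 5 to 9 lower (5 without OE 1), with medians of −0.03 to 0.01 over all members, 0.00 to 0.09 over import genes, −0.21 to −0.11 over chaperones and −0.03 to 0.02 over proteases. Over all genes the fits without an array called 1830 to 2371 higher and 1243 to 1731 lower, so calls were lost across the whole array. *Tomm70a*, 0.04 as the mean of its probe sets, was at −0.61 (adjusted p = 0.0154) with the probe set of largest variance, and no other member passed the test against the sign of its reported difference under any of the 13 settings fitted per gene. The cause of these shifts was not tested. Array weights, centring on array medians, any called probe set and the fold limit of 1.2 kept both counts within 1.5 times.

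The labels give both groups the same replicate numbers but do not say that a number pairs animals. Same-numbered arrays had correlations of deviations of 0.07, −0.12 and 0.03, so they were not treated as pairs. With the replicate block 6 members were higher and 7 lower, and 13 of the 18 calls held. Over all genes the block left 2369 higher and 1679 lower. Signal over background could not be examined, because the values hold no level.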
